A study of Homo sapiens with 36 samples.

Results

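The comparison described here is the change of gene expression in K562 cells between 24 h and 3 d in 1% oxygen. K562 is an established human line from a leukemia with red cell features, and it carries globins of the embryo and fetus. The study measured 36 libraries, 3 for each combination of 21%, 5% or 1% oxygen with 6 h, 24 h, 3 d or 6 d. The 6 libraries of 1% oxygen at 24 h and 3 d were compared, and the 6 libraries of 21% oxygen at the same times, an atmospheric level, were set beside them. No genetic change or drug is named for any of the 4 groups. Each oxygen level had its own incubator, and their effects cannot be told apart. The study's design text places a passage of the cells at 3 d and does not say whether the cells of that time were taken before or after it. Of 21950 genes, 10993 had a mean of at least 1 FPKM (fragments scaled by transcript length and library size) over the 6 libraries of 1% oxygen and were tested. HCN3 (1.00019 FPKM) stood just inside that limit and FAM86C2P (0.997629 FPKM) just outside.

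Cells sense oxygen through prolyl hydroxylases that mark the hypoxia-inducible factors (HIF) for destruction when oxygen is present. When it is scarce, HIF accumulates and induces genes of glycolysis, pH control and vessel growth. Longer shortage of oxygen or nutrients also engages the integrated stress response, in which ATF4 and CHOP (gene DDIT3) are induced, and the unfolded protein response of the endoplasmic reticulum. Sterol regulatory element-binding proteins (SREBP) induce genes of cholesterol and fatty acid synthesis when sterols are low. The synthesis of ribosomes and DNA is commonly slowed in stressed cells.

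One library stood apart and decided how the results are given. Replicate 3 of 1% oxygen at 3 d, called the shallow library, had 7220 genes above 0 where the other 35 libraries had 14512 to 19543. It listed 3969 of the tested genes at 0, against 22 and 16 in replicates 1 and 2 of its group. Its correlation with those 2 replicates was 0.733, against 0.972 between them and 0.99 among the 24 h libraries. All tests were therefore run with and without it, and a gene is said to rise or fall only where it passed an adjusted p of 0.05 in the same direction in both fits, over the 10648 genes present in both. Values are log2 differences of FPKM plus 1, with all libraries first and without the shallow library second. Relative depth, estimated from the value 1 fragment gives to weak genes, was 1.02 to 1.38 at 24 h and 0.508 and 0.848 in replicates 1 and 2 at 3 d. In 21% oxygen it was 0.342 to 0.987 at 24 h and 1.33 to 1.5 at 3 d. The share of 394 olfactory receptor genes above 0, a rough measure of background, was 26.65% to 30.96% at 24 h in 1% oxygen, 70.05% and 54.82% in replicates 1 and 2 at 3 d, and 2.284% in the shallow library. In 21% oxygen this share was 13.2% to 20.3% at 24 h and 33.76% to 38.83% at 3 d. Its part in the results below was not tested.

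K562 markers were present in all 4 groups. Of the 11 markers of T cells, B cells, monocytes, fibroblasts and endothelium, 10 had a mean under 1 FPKM at 24 h. The exception was the T cell gene CD3D, which in 1% oxygen stood at 106, 101 and 85.6 FPKM at 24 h and at 321, 317 and 227 at 3 d. In 21% oxygen CD3D also rose, from a mean of 63.25 FPKM to 97 (0.64). The sum of the 11 markers in 1% oxygen was 87.6 to 109 FPKM at 24 h and 230 to 328 at 3 d, nearly all of it CD3D. In both oxygen levels 3 markers had a mean of at least 1 FPKM at 3 d. CDH5, of endothelium, was listed at 0 at 24 h. The part of other cells in the results was not tested.

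**Figure D1:**
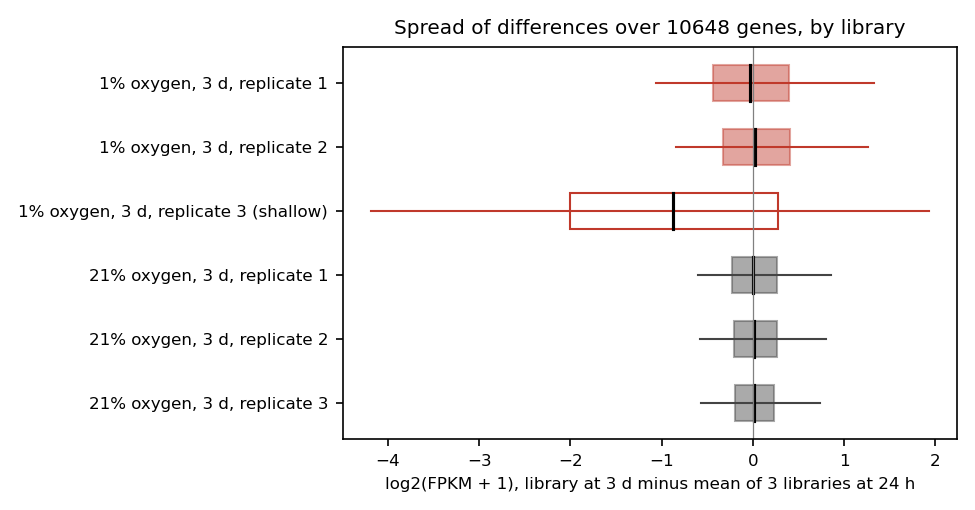
Differences of log2(FPKM + 1) between each library at 3 d and the mean of its 3 libraries at 24 h, over 10648 genes. Boxes span the quartiles with the median as a line, and whiskers run from the 5th to the 95th percentile. The medians lie at -0.0369 and 0.0207 in replicates 1 and 2 of 1% oxygen and at -0.881 in the shallow library.

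Between 24 h and 3 d in 1% oxygen, 1396 genes rose (13.1% of 10648) and 2292 fell (21.5%). Of the rises, 479 were at least 2-fold in both fits and 96 at least 4-fold. Of the falls, 289 were at least 2-fold and 5 at least 4-fold, so that more rises than falls were large. The split between directions depended on the shallow library. With all libraries 2073 of 10993 genes passed as higher (18.9%) and 3687 as lower (33.5%). Without the shallow library 2757 of 10972 passed as higher (25.1%) and 2696 as lower (24.6%). The median over all genes was -0.26 with it and 0.00 without it. In the same step in 21% oxygen 595 genes rose (5.59%) and 527 fell (4.95%), counted in both fits of the same model. Some calls in 21% oxygen moved with the processing, so that values are also given beside them without replicate 3 of 21% oxygen at 24 h and after rescaling to TPM, which sums to the same total in every library.

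The largest rises were in genes of the extracellular space, the cytoskeleton and the cell surface. TIMP1, an inhibitor of matrix metalloproteinases, stood at 233, 239 and 235 FPKM at 24 h and at 3775, 4056 and 3090 at 3 d. All 3 libraries at 3 d lay far above the 3 at 24 h. Its log2 difference was 3.94 (SE 0.13, limma adjusted p 1.82e-18) and 4.05 without the shallow library. That is a 15.4-fold rise of the mean, while in 21% oxygen it moved from between 214 and 329.7 to between 249 and 299. TUBA1A, an alpha tubulin, rose 26.9-fold, and CD44, the hyaluronan receptor, rose 26.3-fold, from between 1.23 and 1.42 FPKM to 41.6 and 49.4, with 11.9 in the shallow library. Among the other genes of the 10 largest rises were CA9, ANGPTL4, FOS and PHLDA1 and the epithelial genes KRT79 (4.14 and 4.29) and DMKN (4.28 and 4.08). Within this set DMKN, CA9 and KRT79 were listed at or near 0 in 21% oxygen at both times.

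Keratins rose together with these genes. KRT8, a keratin of simple epithelia that K562 cells already carry, stood at 389.7, 389 and 363 FPKM at 24 h and at 3468, 4239 and 2824 at 3 d. KRT18, its partner in the filament, stood at 457, 454 and 405 and then at 3261, 3648 and 2495. Both genes thus reached levels per length near those of TIMP1, with no overlap of the libraries. KRT19 (1.49 and 1.71) and the mesenchymal filament gene VIM (1.18 and 1.24) also rose, and the adhesion gene EPCAM fell from between 108 and 119 FPKM to 53, 61.8 and 31.4. Of 7 tested genes of the list of keratins and epithelial genes, 5 rose and 1 fell, with a median of 1.49 and 1.71. In 21% oxygen the median was 0.09 and KRT8 rose (0.41), and all 5 rises were larger in 1% oxygen by the test of the difference between the steps.

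**Figure D2:**
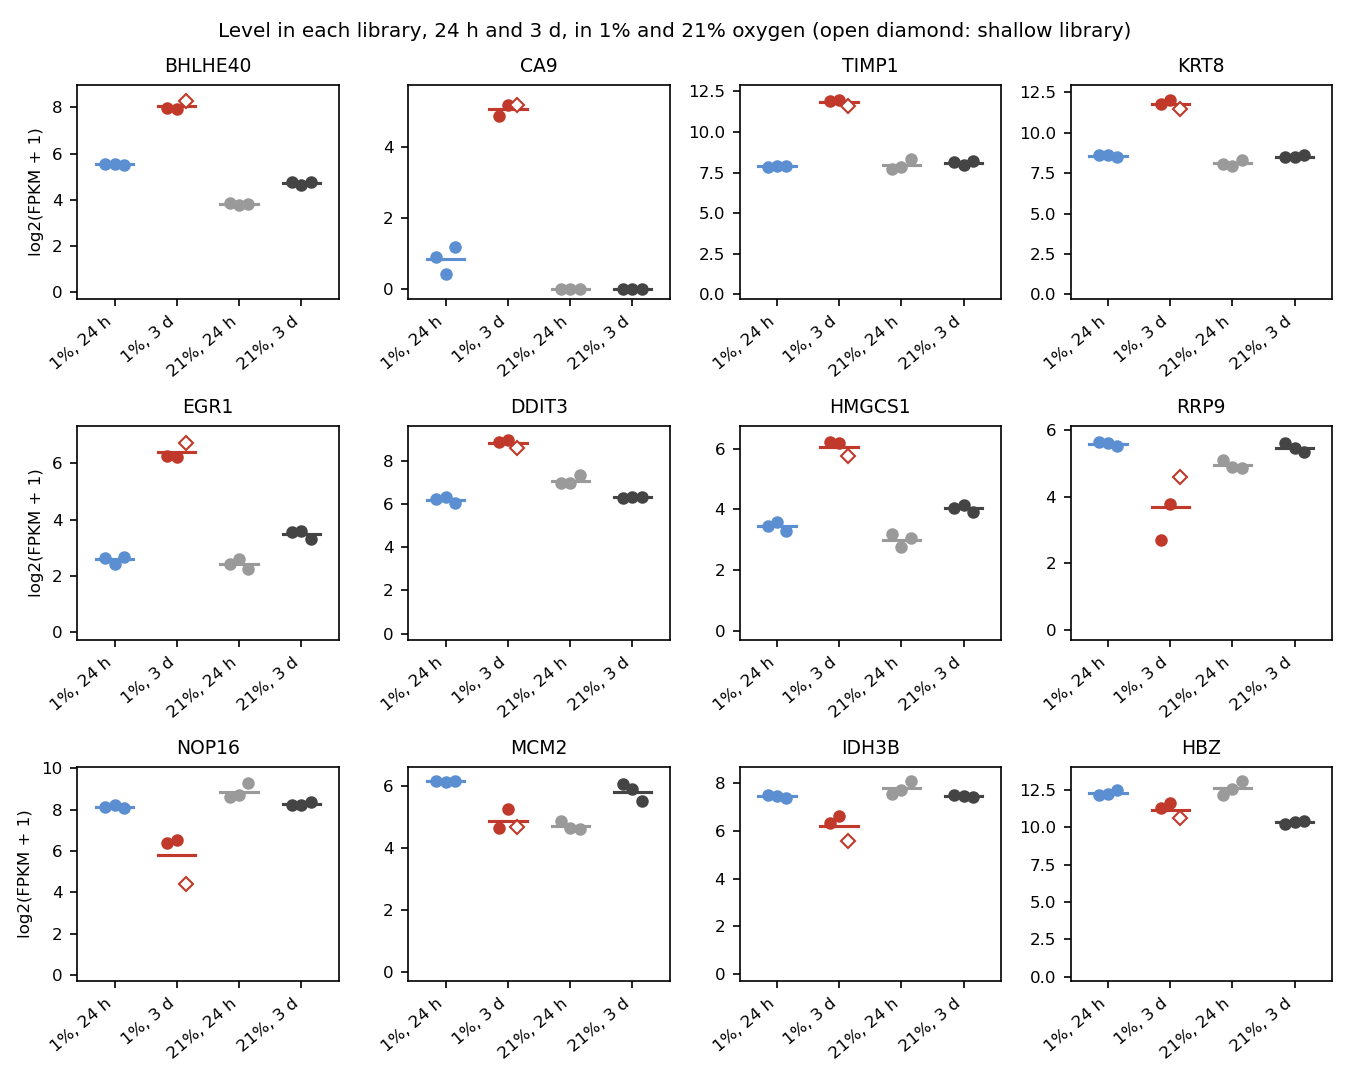
Level of 12 genes as log2(FPKM + 1) in each library of the 4 groups, with a bar at the group mean and the shallow library as an open diamond. BHLHE40, CA9, TIMP1, KRT8, EGR1, DDIT3 and HMGCS1 stand higher at 3 d in 1% oxygen than at 24 h in all 3 libraries. RRP9, NOP16, MCM2, IDH3B and HBZ stand lower there, and RRP9 and MCM2 stand higher at 3 d than at 24 h in 21% oxygen.

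Most tested genes known as HIF targets were higher at 3 d than at 24 h. CA9, which hydrates carbon dioxide outside the cell and helps control pH, stood at 0.849, 0.336 and 1.24 FPKM at 24 h and at 28.3, 35.2 and 35.2 at 3 d, while all 6 libraries of 21% oxygen listed it at 0. BHLHE40, a transcriptional repressor, stood at 45.9, 46.4 and 43.9 FPKM and then at 253, 245 and 306. In 21% oxygen it also rose, from between 12.8 and 13.5 to between 23.7 and 26 FPKM, and the test of the difference between the steps gave 1.63 and 1.53. VEGFA, which drives vessel growth, rose 4.17-fold, from between 3.1 and 3.63 FPKM to 13.8, 12.4 and 15.2. ANGPTL4, an inhibitor of lipoprotein lipase, rose by 3.98 and 4.71, and ADM, the vasodilator adrenomedullin, by 2.35 and 3.66, with 0 FPKM in the shallow library. NDRG1 and the collagen prolyl hydroxylase P4HA2 rose by 2.75 and 2.06 (2.13 and 2.26). Smaller rises were those of BNIP3, which marks mitochondria for autophagy (0.30 and 0.42), and PDK1, which inhibits pyruvate dehydrogenase (0.72 and 0.94). ANKRD37 did not pass, with values of 0.60 and 0.02. Of 29 tested genes of this list, 19 rose and 0 fell, with medians of 0.97 and 1.47. In 21% oxygen 4 rose (P4HA1, P4HA2, BHLHE40 and PLOD1) and 1 fell, with a median of 0.06. The fall was not called without replicate 3 of 21% oxygen at 24 h or with TPM, and TPM gave 9 rises and a median of 0.24. P4HA1 and PLOD1 are named after their values were seen.

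The base sequence ACGTG is the core of the element that HIF binds, and it was searched for on both strands in the 250 bases before the start of each gene (RefSeq, GRCh38.p14). Of the 19 genes that rose, 13 had a sequence and 10 of these held the letters, against 21.7% of all 27305 genes with a sequence. The list was made of genes known as HIF targets, and no share was taken over its members that did not rise. These shares therefore cannot tie the letters to the rise. CA9 (chr9:35673880-35673927) and BHLHE40 (chr3:4979187-4979322), both on the plus strand, are shown because their values are described above, with the matches in capitals.
CA9: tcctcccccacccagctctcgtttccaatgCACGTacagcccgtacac
BHLHE40: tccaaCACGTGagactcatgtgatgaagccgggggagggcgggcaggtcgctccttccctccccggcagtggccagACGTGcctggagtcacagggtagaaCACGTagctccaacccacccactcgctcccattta
The match in CA9 ends 14 bases before the start, and BHLHE40 has 4 matches, of which 2 overlap in CACGTG. A match of so few letters is a description of the sequence and not a shown binding site.

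Genes of glucose uptake and glycolysis rose in part. SLC2A3, a glucose transporter, stood at 29.7, 31.3 and 28.9 FPKM at 24 h and at 126, 121 and 90.4 at 3 d. ENO2, an enolase, rose 4.88-fold, to 40.2 and 40.5 FPKM and 86.4 in the shallow library. The lactate exporter SLC16A3 rose by 1.55 and 1.53, the aldolase ALDOC by 1.39 and 1.53 and the phosphoglycerate kinase PGK1 by 0.81 and 0.95. LDHB, the lactate dehydrogenase subunit of oxidative tissues, fell from 1243, 1318 and 1187 FPKM to 666, 687 and 467. Of 22 genes 10 rose and 1 fell, with medians of 0.24 and 0.48 against -0.01 in 21% oxygen, where 4 rose, among them ALDOC and SLC2A3, and 1 fell. That contrast of the medians rested on the scaling: with TPM they were 0.34 in 1% and 0.36 in 21% oxygen, where 9 genes then rose and 0 fell, and the steps differed toward 1% oxygen in 7 genes and toward 21% oxygen in 5. Among 8 tested HIF subunits and oxygen sensors, EPAS1 (HIF-2α) rose 4.76-fold, from 3.98, 3.52 and 3.86 FPKM to 15.7, 22.1 and 16.2. The HIF prolyl hydroxylase EGLN3 rose (1.56 and 1.93), and its relative EGLN2 fell (-1.16 and -0.60). HIF1A did not pass, with 0.17 and 0.12.

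The stress response genes ATF4 and CHOP and part of their targets rose. DDIT3 stood at 73.4, 77.7 and 65.4 FPKM at 24 h and at 467, 488 and 379.6 at 3 d, a 6.16-fold rise of the mean. In 21% oxygen it fell, from 123, 123 and 160.2 FPKM to 75.9, 78.9 and 79, and the difference between the steps was 3.38 and 3.49 (limma adjusted p 1.16e-14 and 1.34e-16). ATF3, a repressor induced by ATF4, stood at 4.1, 3.65 and 4.57 FPKM and then at 25.6, 28.1 and 60.9. PPP1R15A, which restores translation, rose by 1.66 and 1.92. DDIT4, an inhibitor of mTORC1, rose by 1.66 and 1.81, the pseudokinase TRIB3 by 1.41 and 1.66, and the cystathionine lyase CTH by 1.57 and 1.52. ATF4 itself rose by 0.46 and 0.63. ASNS, the asparagine synthetase that is a classic target, had differences of 0.06 and 0.07 and did not pass, and CHAC1 had -0.52 and 1.05, its sign set by a value of 0 in the shallow library. Of 25 tested genes 12 rose and 3 fell, with medians of 0.24 and 0.44. The falls were in PSAT1, PYCR1 and CBS (named after their values were seen), enzymes of serine, proline and cystathionine synthesis. In 21% oxygen 3 of the list rose and 1 fell, with a median of 0.12. With TPM 13 passed as higher in 1% and 12 in 21% oxygen, with medians of 0.34 and 0.49. The steps then differed toward 1% oxygen in 5 genes and toward 21% oxygen in 5. Among 20 aminoacyl-tRNA synthetases in 1% oxygen 3 rose and 8 fell, among the falls FARSA (-1.32 and -0.99). The rises were AARS (0.57 and 0.58), DARS (0.44 and 0.41) and TARS (named after its values were seen). In 21% oxygen 2 synthetases rose, among them AARS (0.47), and 1 fell, DARS (-0.24). With TPM 8 passed as higher and 0 as lower in 21% oxygen. Of 15 amino acid transporters 2 rose and 2 fell in 1% oxygen, with medians of -0.14 and 0.34. Among them SLC38A2 rose 4.7-fold, from 60.8, 56.7 and 54.3 FPKM to 286, 268 and 255. In 21% oxygen 2 of the transporters rose, among them SLC38A2 (0.58), and 1 fell, with a median of 0.10.

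Part of the genes of endoplasmic reticulum chaperones and the unfolded protein response rose, and most of a list of heat shock chaperones fell. HSPA5 (BiP), the main chaperone of the endoplasmic reticulum, stood at 116, 118 and 107 FPKM at 24 h and at 403, 424 and 401 at 3 d, and the shallow library lay with the other 2. HERPUD1, of the degradation machinery there, rose 4.15-fold to 107, 114 and 111 FPKM, and HSP90B1 rose 2.02-fold, from 151, 157 and 141 FPKM to 322, 313 and 271. In 21% oxygen HSPA5 rose from between 134 and 149 FPKM to 170.4, 179 and 192, and the difference between the steps was 1.49 and 1.51. Of 27 genes 10 rose and 0 fell, with medians of 0.29 and 0.50. In 21% oxygen 7 rose and 1 fell, with a median of 0.28. There 2 rose and 0 fell without replicate 3 of 21% oxygen at 24 h. With TPM 15 rose and 0 fell, with a median of 0.64 beside 0.39 in 1% oxygen. By the fit without the shallow library, taken alone, 16 passed as higher and 2 as lower in 21% oxygen, and 17 and 0 in 1%. XBP1 had -0.54 and 0.98, with 0 FPKM in the shallow library. Of 18 cytosolic and mitochondrial chaperones 0 rose and 12 fell, with medians of -0.75 and -0.42. HSPD1 (HSP60) fell from 494, 499 and 438 FPKM to 222, 219.9 and 183, and HSPE1, its cofactor, fell 2.82-fold. The chaperonin subunits CCT3, TCP1 and CCT5 fell by 0.83, 0.81 and 0.74, and by 0.78, 0.73 and 0.70 without the shallow library. In 21% oxygen 0 of the 18 rose and 2 fell, among them HSPE1 (-0.83), with a median of -0.15. With TPM 3 passed as higher and 1 as lower there, with a median of 0.23, and HSPE1 had -0.45.

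The ER stress element (CCAAT and CCACG at their usual spacing), a form of the ATF4 and CHOP element (TGATGNAA) and a single form of the serum response element, printed in capitals in EGR1 below, were each searched on both strands over the same windows. They stood in 0.0916%, 3.89% and 0.0403% of all genes with a sequence. Among the genes that rose, the first stood in 2 of 10 chaperone and unfolded protein response genes, the second in 2 of 9 ATF4 and CHOP genes, and the third in 1 of 8 immediate early genes. HSPA5 (chr9:125241361-125241439, minus strand), ATF3 (chr1:212565186-212565253) and EGR1 (chr5:138465344-138465413), both on the plus strand, are shown as the examples described in the text, with the matches in capitals.
HSPA5: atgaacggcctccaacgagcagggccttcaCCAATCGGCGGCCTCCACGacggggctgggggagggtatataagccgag
ATF3: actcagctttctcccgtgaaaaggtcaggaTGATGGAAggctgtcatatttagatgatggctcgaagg
EGR1: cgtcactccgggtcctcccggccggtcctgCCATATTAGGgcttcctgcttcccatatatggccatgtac
The matches begin 66, 191 and 105 bases before the starts. They describe the letters of these windows only.

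Immediate early genes, which encode rapidly induced transcription factors, and genes of growth arrest rose in part. EGR1, a zinc finger factor, stood at 5.24, 4.39 and 5.39 FPKM at 24 h and at 75.2, 74 and 104 at 3 d. FOS, a subunit of AP-1, stood at 0.338, 0.864 and 0.92 FPKM and then at 21.2, 23.5 and 32.7, and KLF6 rose 9.54-fold. FOS and EGR1 also rose in 21% oxygen (1.27 and 1.09), and both rose by more in 1% oxygen by the test of the difference. Of 20 tested genes 12 rose and 1 fell (ID1, -2.99 and -0.75, named after its values were seen), with medians of 1.45 and 1.79 against 0.38 in 21% oxygen. IER2 and DUSP1 rose in 21% oxygen (2.89 and 2.46). In 1% oxygen they did not pass, with 0.89 and 0.65 for IER2 and 1.27 and 1.39 for DUSP1. The oxygen levels already differed at 24 h, when IER2 averaged 53.2 FPKM in 1% and 6.02 in 21% oxygen, and DUSP1 12.4 and 0.812. At 3 d IER2 averaged 111.7 FPKM in 1% and 52.3 in 21% oxygen, and DUSP1 33.6 and 8.54. The limma adjusted p of DUSP1 in 21% oxygen was 0.0579 without replicate 3 of 21% oxygen at 24 h. CDKN1A (p21), which inhibits cyclin-dependent kinases, rose 12.7-fold in 1% oxygen, from 3.59, 4.23 and 2.93 FPKM to 43.8, 42.7 and 50.3. BTG2, an antiproliferative factor, stood at 6.96, 4.74 and 6.61 FPKM and then at 78.4, 73.8 and 38.3, and GDF15, a stress hormone, rose 5.08-fold. Of 12 tested genes known as p53 targets or growth arrest genes 7 rose and 0 fell, with medians of 1.01 and 1.08. In 21% oxygen 2 rose, among them CDKN1A (0.86, from a mean of 2.55 FPKM to 5.34), and 0 fell, with a median of 0.29. With TPM 5 passed as higher in 21% and 8 in 1% oxygen, with medians of 0.62 and 1.14. The steps differed toward 1% oxygen in 5 genes and toward 21% oxygen in 0, and with TPM in 5 and 1. K562 cells are known to lack functional p53.

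Genes of cholesterol synthesis rose in both oxygen levels. In 1% oxygen 22 of 27 rose and 1 fell (PMVK, named after its values were seen), with medians of 1.46 and 1.57, and in 21% oxygen 21 rose and 0 fell, with a median of 0.92. HMGCS1, which makes HMG-CoA, stood at 10.1, 11.1 and 8.89 FPKM at 24 h and at 72.8, 71.7 and 52.8 at 3 d. In 21% oxygen it went from 8.09, 5.83 and 7.29 FPKM to 15.5, 16.9 and 14.2, and the difference between the steps was 1.55 and 1.70. SQLE, the squalene epoxidase that needs oxygen, rose 4.11-fold in 1% and 1.95-fold in 21% oxygen. INSIG1, which retains SREBP and is induced by it, stood at 59, 50.7 and 59.9 FPKM and then at 267, 634 and 534, and in 21% oxygen at 14.9, 14.9 and 12.4 and then at 125, 100.2 and 87.5. Its steps were not called different (0.17 and 0.05, limma adjusted p 0.773 and 0.944). The test of the difference found 11 genes of the list with a larger step in 1% oxygen and 2 with a smaller one, among them SCAP (named after its values were seen). Of 17 tested genes of fatty acid synthesis 9 rose in 1% oxygen and 10 in 21% oxygen, with medians of 0.74 and 0.78 against 0.76. SCD, the stearoyl-CoA desaturase, stood at 80.2, 76.2 and 75.7 FPKM and then at 284, 304 and 285, while FADS1, a desaturase of polyunsaturated fatty acids, had the smaller step in 1% oxygen (difference -0.81 and -0.64). Of 15 tested genes of lipid storage and oxidation 6 rose and 2 fell. LPIN1, a phosphatidate phosphatase, stood at 12.2, 11.4 and 10.5 FPKM at 24 h and at 45.3, 40.8 and 32.9 at 3 d, and PLIN2, which coats lipid droplets, at 54.1, 48.1 and 41.2 and then at 113, 126 and 52.9. HILPDA, an inhibitor of lipid breakdown, stood at 34.4, 30.5 and 29.4 FPKM and then at 76.8, 102 and 28.8, so that the shallow library lay just below those of 24 h. CPT1A, which carries fatty acids into mitochondria, and the fatty acid carrier FABP5 fell (-1.68 and -2.76 with the shallow library, -0.96 and -1.43 without it).

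Lysosomal and autophagy genes rose in part. CTSL1, a lysosomal protease, stood at 47.8, 51.1 and 48.3 FPKM and then at 320.4, 329.9 and 268, and SQSTM1, an autophagy receptor, at 50.4, 52 and 53.2 and then at 247, 279.7 and 154. MAP1LC3B and BNIP3L rose by 1.33 and 1.27 (1.58 and 1.47). Of 26 tested genes 9 rose and 1 fell (CTSA, named after its values were seen), with medians of 0.05 and 0.35. In 21% oxygen 3 rose and 0 fell, with a median of 0.05. With TPM 10 passed as higher in 1% and 11 in 21% oxygen, with medians of 0.13 and 0.40. The steps differed toward 1% oxygen in 6 genes and toward 21% oxygen in 1, and with TPM in 5 and 6. Among BCL2 family genes in 1% oxygen MCL1, which protects from apoptosis, rose from 17.3, 17.2 and 18.2 FPKM to 41.6, 40.1 and 84.5. PMAIP1, which promotes apoptosis, also rose (1.45 and 1.79), while BCL2L11 (BIM) fell from 18.6, 18.1 and 18.1 FPKM to 6.18, 6.41 and 7.12.

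The 10 largest falls, ranked by the smaller of the 2 log2 differences, were in FAM173A, GCDH, SLC25A10, STEAP3, NTHL1, RRS1, IGFLR1, IFI30, RPUSD1 and C20orf27. Of these, 9 were listed at 0 in the shallow library, so that their values without it are the ones to read. NTHL1, a DNA glycosylase, was the exception, with 42.1, 51.3 and 49.9 FPKM at 24 h and 7.4, 10.1 and 18.1 at 3 d, 4.03-fold lower in the mean. GCDH, of lysine breakdown, stood at 25.6, 22.9 and 22.9 FPKM and then at 3.93, 5.33 and 0 (-2.98 and -2.15). STEAP3, an iron reductase of erythroid endosomes, stood at 15.4, 13 and 12.9 FPKM and then at 2.57, 2.68 and 0 (-2.64 and -2.02). Of all falls, 792 were listed at 0 in the shallow library.

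Genes of ribosome biogenesis fell. Of 30 genes 28 fell and 0 rose, with medians of -1.11 and -0.95, where 21.5% of all genes fell. NOP16, a nucleolar protein, stood at 282, 295 and 268 FPKM at 24 h and at 82.5, 93 and 20.5 at 3 d. RRP9, of the small subunit processome, stood at 48.9, 47.5 and 45 FPKM and then at 5.57, 12.8 and 23. POLR1A, the largest subunit of RNA polymerase I, fell 2.49-fold, and TCOF1 and LYAR fell by 1.12 and 1.30, and by 1.27 and 1.16 without the shallow library. In 21% oxygen 5 fell and 0 rose, with a median of -0.19. Without replicate 3 of 21% oxygen at 24 h, 1 fell there. With TPM 0 fell, and the median was 0.18. By the fit without the shallow library, taken alone, 14 passed as lower in 21% oxygen and 30 in 1% oxygen. The difference between the steps was called for 23 genes of the list, all toward a lower step in 1% oxygen. MYC, which drives such genes, had differences of -0.12 and -0.19 and did not pass in both fits. The 75 tested genes of cytosolic ribosomal proteins did not follow: 0 rose and 4 fell (RPS26, RPSA, RPL8 and RPL7A), with medians of -0.12 and 0.02. In 21% oxygen 52 of them fell, with a median of -0.55. That fall rested on the processing: the median was -0.34 with 4 calls without replicate 3 of 21% oxygen at 24 h, -0.17 after rescaling to TPM and 0.02 after quantile normalization.

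Genes of DNA replication fell in 1% oxygen. Of 37 genes 31 fell and 1 rose (RRM2, named after its values were seen), with medians of -0.83 and -0.66 against -0.08 in 21% oxygen. GINS2, of the replicative helicase, stood at 108, 114 and 111 FPKM and then at 42.2, 52.8 and 32.1. MCM2, another part of the helicase, stood at 70.4, 68.4 and 70.5 FPKM and then at 24, 37 and 24.4. In 21% oxygen MCM2 moved the other way, from 28.3, 23.5 and 23.2 FPKM to 65.1, 57.9 and 44, so that the oxygen levels already differed at 24 h. TYMS, the thymidylate synthase, had the same pattern (-1.02 and -1.13 in 1% oxygen, 1.54 in 21%), though without replicate 3 of 21% oxygen at 24 h its limma adjusted p in 21% oxygen was 0.0911. In 1% oxygen MCM2 averaged 31.2 ± 0.0792 FPKM (SD, n = 3) at 6 h and 69.1 ± 24.7 at 6 d. Its fall was thus from a 24 h level above that at 6 h. In 5% oxygen at 24 h it averaged 48.7 ± 19.2 FPKM. SKP2, which targets cell cycle inhibitors for degradation, stood at 74.1, 71.9 and 69.4 FPKM and then at 23.2, 23.2 and 0. CDK4 fell by 0.76 and by 0.97 without the shallow library, and the cyclin CCND1 rose (1.99 and 1.38). Of 31 tested genes of the G2 phase and mitosis 9 fell and 1 rose (HMMR, named after its values were seen), with medians of -0.35 and -0.15, close to those of all genes (-0.30 and -0.01).

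Mitochondrial genes fell, in part in both oxygen levels. Of 74 genes of the mitochondrial ribosome 54 fell and 2 rose in 1% oxygen, with medians of -0.88 and -0.61. MRPL34 stood at 105, 107 and 92.5 FPKM and then at 40.2, 47.7 and 40.7. The 2 that rose were MRPS6 and MRPS10 (named after their values were seen). In 21% oxygen 14 fell and 2 rose, with a median of -0.30. Without replicate 3 of 21% oxygen at 24 h, 1 fell and 2 rose there. With TPM 2 fell and 8 rose, and the median was 0.07. By the fit without the shallow library, taken alone, 42 passed as lower in 21% oxygen and 59 in 1% oxygen. Of 24 genes of the citric acid cycle and pyruvate entry 14 fell and 0 rose, with medians of -0.78 and -0.48, and in 21% oxygen 0 fell and 0 rose by limma, with a median of -0.10 (with TPM 6 rose and the median was 0.28). At an unadjusted p under 0.05 in both fits, 3 of these were lower and 1 higher in 21% oxygen, and 1 was higher in 1% oxygen. At that unadjusted limit no gene of the hypoxia, endoplasmic reticulum chaperone, p53 and fatty acid lists was lower in 1% oxygen, and none of the ribosome biogenesis, ribosomal protein, complex I, heat shock and proteasome lists was higher. IDH3B, of the isocitrate dehydrogenase, stood at 182, 176 and 167 FPKM and then at 80.2, 98.8 and 47.2, and FH, the fumarase, fell from between 237 and 247 to 143, 158 and 115. Of 42 genes of complex I 23 fell in 1% oxygen (medians of -0.67 and -0.48) and 20 in 21% oxygen (-0.54). NDUFAF3, an assembly factor, went from 53.4, 55.8 and 46.6 FPKM to 21.8, 25.2 and 22.4. Of 39 genes of complexes II to V 15 fell in 1% oxygen (medians of -0.52 and -0.31), and 19 fell and 1 rose in 21% oxygen (-0.53). Without replicate 3 of 21% oxygen at 24 h, those falls in 21% oxygen went to 4 of complex I and 3 of complexes II to V. With TPM they went to 5 and 7. By the fit without the shallow library, taken alone, they were 35 and 28, beside 25 and 16 in 1% oxygen. SOD2, the mitochondrial superoxide dismutase, fell 2.68-fold in 1% oxygen, from 70.7, 79.2 and 64.1 FPKM to 28.6, 28.4 and 22.8. Of 31 proteasome genes 18 fell and 0 rose, with medians of -0.49 and -0.30. In 21% oxygen 4 fell, with a median of -0.27, and 0 did without replicate 3 of 21% oxygen at 24 h or with TPM. By the fit without the shallow library, taken alone, 23 passed as lower in 21% oxygen and 18 in 1% oxygen. By limma the steps were called different for 0 proteasome genes in both fits, with 0 higher and 1 lower in 1% oxygen at an unadjusted p under 0.05, while with TPM 18 were lower there.

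Red cell genes changed unevenly between 24 h and 3 d. HBZ, the embryonic zeta globin and the most abundant of the K562 markers, stood at 4610, 4838 and 5891 FPKM at 24 h and at 2515, 3109 and 1550 at 3 d. In 21% oxygen it fell from 4630, 5925 and 8973 FPKM to 1214, 1293 and 1375, and the difference between the steps was 1.13 and 1.42. HBG1, a fetal globin with a near-identical copy, had -0.12 and -0.06 in 1% oxygen and fell by 1.29 in 21%. ALAS2, which starts heme synthesis in erythroid cells, rose in 1% oxygen from 39.6, 38.5 and 60.6 FPKM to 56.2, 61.8 and 92.9, and fell in 21% oxygen from between 42.6 and 47.1 to between 16.7 and 19. SLC4A1 had the same pattern (0.52 and 0.44 against -0.52). The erythroid factor KLF1 fell in 1% oxygen (-1.93 and -1.91), with 4.27 FPKM in replicate 1 and 28.9 in replicate 2. In 1% oxygen KLF1 averaged 14.1 ± 2.58 FPKM (SD, n = 3) at 6 h and 46.6 ± 6.45 at 24 h. It averaged 14.8 ± 12.7 FPKM at 3 d and 76.7 ± 56.8 at 6 d. The fall was thus from a high 24 h level to a mean near that at 6 h. Of 27 tested globin and red cell membrane genes 4 rose (SLC4A1, RHD, RHCE and, named after its values were seen, HBE1) and 8 fell in 1% oxygen, and 0 rose and 12 fell in 21%. Of all genes 13.1% rose and 21.5% fell in 1% oxygen and 4.95% fell in 21%, so that the counts in 1% oxygen lay near the background. With TPM 1 rose and 7 fell in 21% oxygen, and SLC4A1 was not among them (-0.25). The test of the difference gave 10 with a higher and 1 with a lower step in 1% oxygen (GYPC). Of 14 tested genes of iron handling 3 rose and 6 fell in 1% oxygen, with medians of -0.29 and -0.10. Among the rises, the ferritin genes FTL and FTH1, which store iron, rose 1.96-fold and 1.97-fold, FTH1 from 882, 958 and 902 FPKM to 1713, 1812 and 1885. In 21% oxygen they had -0.37 and -0.47, and 0.01 and -0.09 with TPM. MT2A, a metallothionein, stood at 26.3, 26.9 and 22.9 FPKM and then at 139, 184 and 195, while in 21% oxygen it had -1.26, a fall that did not pass without replicate 3 of 21% oxygen at 24 h (limma adjusted p 0.0576). The nuclear RNAs MALAT1 and NEAT1 rose 2.75-fold and 3.67-fold in 1% oxygen and had -0.63 and -0.50 in 21%, where neither passed.

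**Figure D3:**
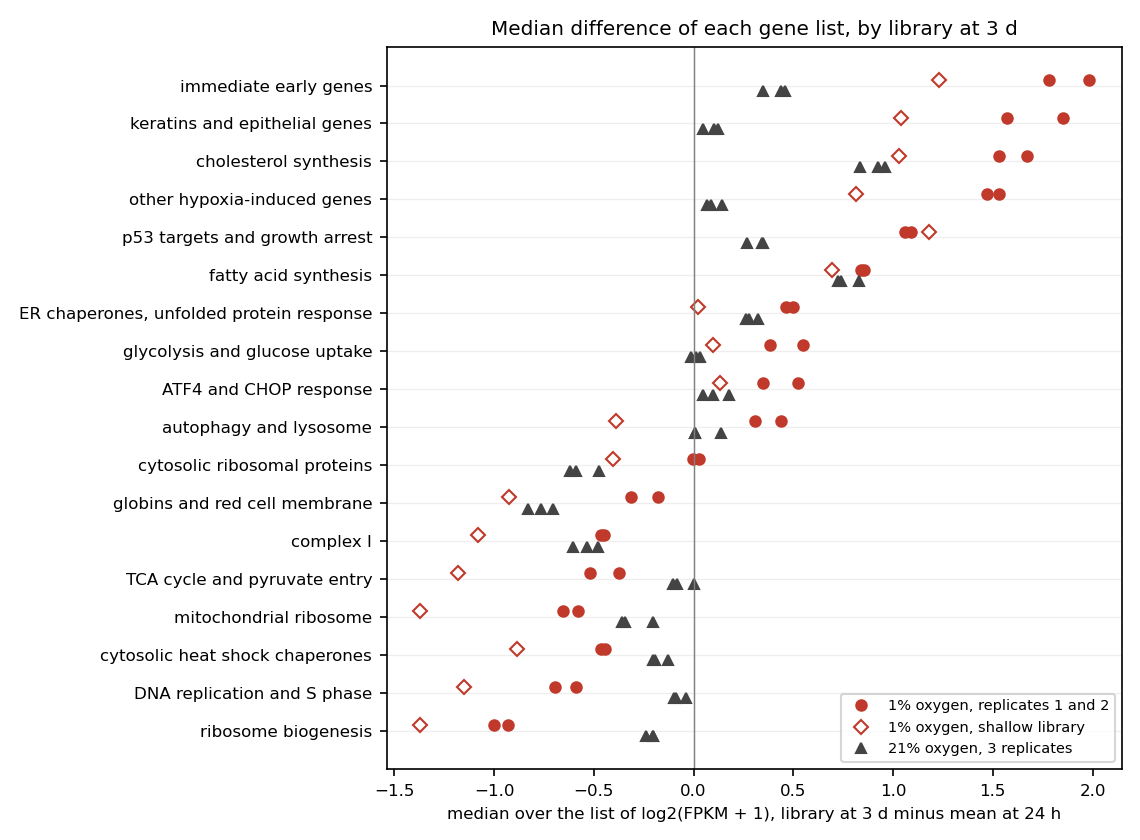
Median over each gene list of the difference in log2(FPKM + 1) between a library at 3 d and the mean of its 3 libraries at 24 h. Red points are 1% oxygen with the shallow library as an open diamond, and dark triangles are the 3 libraries of 21% oxygen. The shallow library lies to the left of the other 2 in every list shown apart from the p53 and growth arrest list.

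Set against each other, the genes called in both the 1% and the 21% step were a minority of each list. The size of the overlap depended on the fit. In 21% oxygen 1122 genes were called with all libraries and 3145 without the shallow library, and the 1122 called in both are used here. Both steps raised 219 genes, which are 15.69% of the rises in 1% and 36.81% of those in 21% oxygen. Both lowered 230, which are 10.03% and 43.64%. Over all genes 13.1% rose and 21.5% fell in 1% oxygen, and 5.59% rose and 4.95% fell in 21% oxygen. Each overlap thus lay above the matching share of all genes. Another 33 genes rose in 1% and fell in 21% oxygen, and 63 did the reverse. The steps differed by the test of the difference in 935 genes toward a higher step in 1% oxygen (8.78%) and in 1609 toward a lower one (15.1%). Rescaling to TPM shifted the median of all genes in 21% oxygen to 0.31, and 1859 genes passed as higher there and 83 as lower. The difference between the steps was then called higher for 753 and lower for 3342 genes.

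Among the genes with the most negative difference, some crossed between the oxygen levels. MRPS26, of the mitochondrial ribosome, stood at 81, 75.1 and 79.3 FPKM at 24 h and at 17.4, 25.9 and 18.7 at 3 d in 1% oxygen. In 21% oxygen it stood at 36.5, 17.8 and 18.2 FPKM and then at 83.2, 76.6 and 72.6. SURF6, a nucleolar protein, showed the same crossing, from between 61.8 and 72.1 to between 15.1 and 28.2 FPKM in 1% and from between 8.55 and 23.2 to between 39.8 and 60.1 in 21% oxygen. For SURF6 the limma adjusted p in 21% oxygen was 0.0773 without replicate 3 of 21% oxygen at 24 h. MRPS26 averaged 30 ± 3.55 FPKM (SD, n = 3) at 6 h in 1% oxygen, below its 24 h level. In 5% oxygen at 24 h it averaged 64.7 ± 30.2 FPKM. SDHAF1, an assembly factor of succinate dehydrogenase, rose in 21% oxygen (2.38) and did not pass in 1% (-0.69 and -0.90). Depth rose between the times in 21% oxygen and fell in 1% oxygen, and its part in these crossings was not tested.

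**Figure D4:**
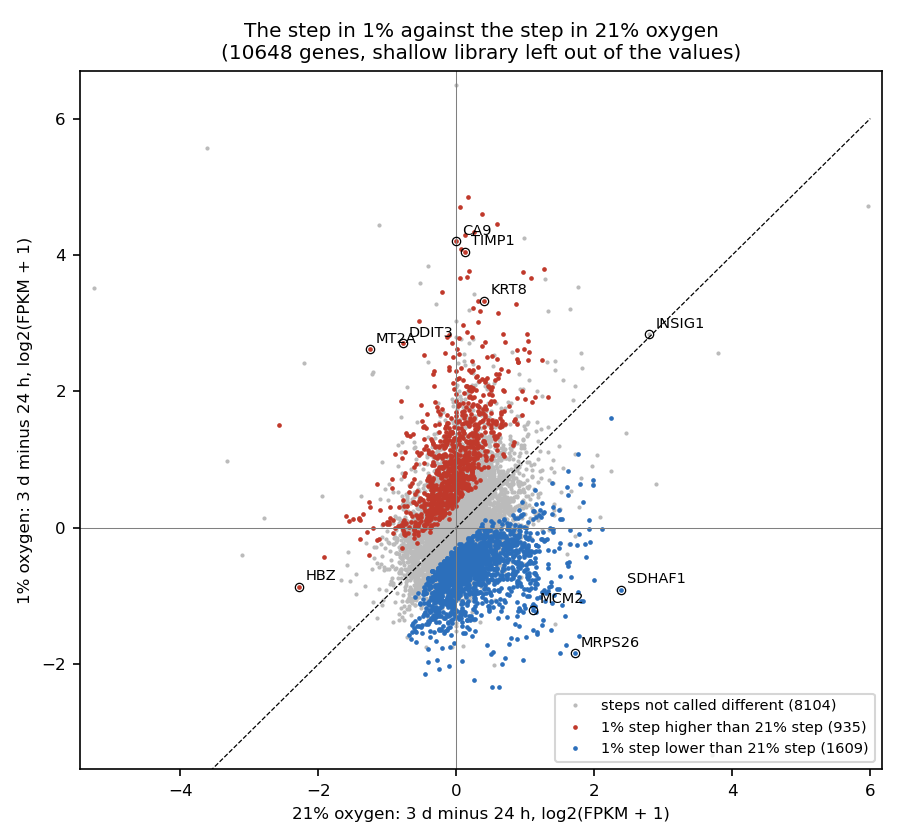
Log2 difference between 3 d and 24 h in 1% oxygen against that in 21% oxygen for 10648 genes, with the shallow library left out of the values. The dashed line marks equal steps, and the coloured genes differ between the steps in both fits, 935 higher and 1609 lower in 1% oxygen. INSIG1 lies near the line, and CA9 and TIMP1 lie high on the vertical axis and near 0 on the horizontal one.

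Over the other times and oxygen levels, the means of TIMP1 and DDIT3 were lower again at 6 d in 1% oxygen and stood high at 3 d and 6 d in 5% oxygen. TIMP1 averaged 3640.5 ± 497 FPKM (SD, n = 3) at 3 d and 492 ± 26 at 6 d in 1% oxygen, and 4174 ± 625 and 2789 ± 57.5 in 5% oxygen. DDIT3 averaged 445 ± 57.6 FPKM (SD, n = 3) at 3 d and 90.5 ± 4.29 at 6 d in 1% oxygen and 377 ± 40.7 and 241 ± 17.2 in 5% oxygen. SKP2, among the falls, averaged 15.5 ± 13.4 FPKM (SD, n = 3) at 3 d and 53.1 ± 7.68 at 6 d in 1% oxygen. HBZ went the other way after 3 d, from 2391 ± 787 FPKM (SD, n = 3) to 18428 ± 2077 at 6 d in 1% oxygen. These means are given as a description, without a test.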

How the data were processed

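PolyA-selected RNA of 36 libraries was sequenced after a Smart-seq2 protocol, per the labels' protocols. The authors deposited FPKM values for 21950 genes, made with TopHat, Cufflinks and Cuffnorm per the submitters' processing notes. For the versions, the genome build and the gene annotation nothing is stated in the texts used. The gene table holds no counts, so that counting error is unknown, and a deposited table of transcripts was not used.

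Sample labels gave the groups. The log2 of FPKM plus 1 entered a limma 3.58.1 model (R 4.3.3) of 12 group means, fitted over all 36 libraries with a prior that follows the mean level. It left 24 degrees of freedom. Moderated tests in both directions were adjusted by Benjamini-Hochberg over all genes with a mean of at least 1 FPKM over the 6 libraries of 1% oxygen at 24 h and 3 d. Contrasts were 3 d minus 24 h in 1% oxygen, the same in 21% oxygen, and the difference of both. The fit was repeated without the shallow library, with its own filter. No source says that replicates were separate cultures, so the p-values measure the spread between these libraries, which may be technical.

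The naming of genes followed a rule. The 10 largest rises and 10 largest falls of the 1% step were ranked by the smaller log2 difference of the fits, among genes of at least 5 FPKM whose libraries did not overlap. Added were the 5 most positive and 5 most negative differences between the steps, the 5 largest rises and falls of the 21% step, up to 6 called members of each of 38 gene lists, and a fixed set of 41 genes. Not all of these appear in the text. Some items of the rule are not reported here. The members and lists were chosen with earlier results of these data known. Lists are given by counts and medians, with no set test. Alternatives were other pseudocounts, filters, scalings, blocks, weights and left-out libraries. Promoter letters are from RefSeq. Plots were made in matplotlib 3.10.9.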

Additional observations from a re-analysis of the deposited data

Results flagged for a closer look

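The step from 24 h to 3 d differed between 1% and 21% oxygen for 9 named genes, by the limma test of the difference. With all libraries, CA9 (4.25), DMKN (4.21) and KRT79 (4.01) had the higher step in 1% oxygen on the log2 scale. RPL36A-HNRNPH2 had 4.64, a readthrough transcript of 2 genes whose 24 h libraries in 1% oxygen ranged from 0.191 to 31.9 FPKM and whose values share reads with both genes. NUDT8 (-4.41), SPR (-4.35), MRPS26 (-3.61), SURF6 (-3.52) and SDHAF1 (-3.08) had the lower step in 1% oxygen. NUDT8 and SPR were listed at 0 in the shallow library and had -3.31 and -3.34 without it. The genes were taken from the 5 most positive and 5 most negative, and groups of 3 libraries were not tested for single deviating libraries.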

How the results depend on the processing

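The counts of genes depended on the shallow library, on the libraries that set the spread and on the scaling. In 1% oxygen 2073 genes were higher and 3687 lower with all libraries. The higher count was 3175 with no filter, 1359 with a filter of 5 FPKM and 249 with the compared groups only, where the lower count was 186. Leaving out 1 library gave 1782 to 2757 higher (2757 without the shallow library) and 2696 to 4972 lower (4972 without replicate 2 of 3 d). With the shallow library also left out, the ranges were 2010 to 2638 and 1915 to 2624.

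In 21% oxygen, where 595 and 527 genes were called, the higher and lower counts were 1602 and 1543 without the shallow library, 1859 and 83 with TPM, 1815 and 1446 with array weights, 1454 and 1469 with quantile normalization and the shallow library left out, and 4600 and 241 with TPM and that library left out. The lower count was 334 with quantile normalization, 231 with the compared groups only and 270 with these and the shallow library left out. Leaving out 1 library gave 257 to 1602 higher and 137 to 1543 lower, with the lowest counts without replicate 3 of 24 h. The higher count was 310, 344 and 396 without replicates 1, 2 and 3 of 3 d. With the shallow library also left out, the ranges were 1563 to 1628 and 1497 to 1574.

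For the difference between the steps, 1155 genes were higher and 1860 lower. The higher count was 2080 without the shallow library, 256 with the compared groups only, 753 with TPM, 2152 with array weights and 2096 with quantile normalization and the shallow library left out. The lower count was 266 with the compared groups only, 3342 with TPM and 3778 with TPM and the shallow library left out. Leaving out 1 library gave 949 to 2080 higher and 1354 to 3910 lower, with 3593 and 3910 without replicates 1 and 2 of 1% oxygen at 3 d. With the shallow library also left out, the ranges were 1444 to 2039 and 1369 to 2136.

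Replicate numbers showed no sign of pairing, with correlations of same-numbered deviations of -0.0455 to 0.0102 in 1% and -0.0417 to 0.0802 in 21% oxygen. In 1% oxygen the check kept the shallow library, which sets most of the deviations at 3 d, so that it cannot decide on pairing there. With a replicate block the counts were 2044 higher and 3656 lower in 1% oxygen, 560 and 487 in 21% oxygen, and 1145 and 1839 for the difference. With a replicate block and the shallow library left out they were 1572 and 1514 in 21% oxygen and 2056 higher for the difference. Settings that combine the shallow library with another choice were, apart from the scalings, added after the data were seen. No named gene that passed in both fits changed sign. Among those that did not pass, CHAC1, XBP1 and MXI1 turned from lower to higher and HBA2 from higher to lower without the shallow library (1.05, 0.98, 0.98 and -0.42), MYC turned to 0.13 with quantile normalization and ASNS to -0.00 without replicate 3 of 1% oxygen at 24 h. TPM ended the call of 6 named genes, quantile normalization that of 3, and leaving out 1 library that of 2 to 6. The causes were not tested. FPKM without counts gives no counting error, so that weak genes are limited by an unknown depth.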
